A study of Homo sapiens with 8 samples.

Results

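The LY6 and uPAR-domain genes encode cysteine-rich proteins with domains that share the fold of snake three-finger toxins. The 10 genes described here, LY6D, LY6E, LY6K, LYNX1, SLURP1, PSCA, LYPD2, LYPD3, LYPD5 and PLAUR, were chosen by name from the 58735 genes of a count table. All 10 were found in it and all 10 had enough reads to be tested, among 15135 tested genes. They were measured by RNA-seq in EPC2-hTERT, an esophageal epithelial cell line of human origin immortalised with telomerase, in 4 control libraries (CTRL) and 4 libraries of a stable line made with a lentivirus to overexpress miR-155-5p (miR-155OE). Both lines spent 2 days on inserts with pores of 0.4 µm and 5 days at a calcium level of 1.8 mM before the upper side was exposed to air. The labels do not say whether the overexpressing line is a pool or 1 clone, what vector the control cells carry, or whether libraries of a group came from separate cultures, so the p-values measure the spread between these libraries, which may be technical.

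Most proteins of this family sit on the outer cell face by a lipid (GPI) anchor, and a few, such as SLURP1, are secreted. Some bind nicotinic acetylcholine receptors and tune their response (SLURP1, LYNX1). PLAUR is the receptor that holds the protease urokinase at the cell surface, and LYPD3 (also called C4.4A) resembles it in structure. In stratified epithelium several members are made above the basal layer, and loss of SLURP1 causes a hereditary thickening of the skin of palms and soles.

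The microRNA that was overexpressed is shown here because its seed is what a target transcript would pair with. The mature sequence is from RefSeq (GRCh38.p14, chromosome 21, plus strand, 25573983 to 25574006), 5′ to 3′, with the seed, bases 2 to 8, in capitals.
hsa-miR-155-5p: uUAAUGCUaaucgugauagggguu
The DNA letters complementary to that seed, AGCATTA, were searched on the sense strand of the longest 3′ UTR that GENCODE release 29 gives each gene. They occurred in 0 of the 10 genes, whose UTRs ran from 133 bases (LYPD2) to 3970 bases (LYNX1) with a median of 578. Among the 12523 tested genes with an annotated UTR, whose median length was 1380 bases, 11.8% held the heptamer. A search of these letters says nothing of sites elsewhere in the transcripts.

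The 10 genes lie in 2 clusters: PSCA, LY6K, SLURP1, LYPD2, LYNX1, LY6D and LY6E within 354 kb of chromosome 8, and LYPD3, PLAUR and LYPD5 within 366 kb of chromosome 19 (GRCh38).

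Library totals ran from 33.4 to 52.7 M counts (mega), and CPM below is counts per 1 M of a library's TMM-scaled total. Basal squamous markers were high in every library, with a summed level of 20100 to 25700 CPM in CTRL libraries and 18100 to 24400 CPM in the others. On group alone 0 of the 8 were called. With the replicate number as a block KRT15 (log2 change −0.46, edgeR adjusted p = 0.0292) and LAMB3 (−0.49, 0.00413) fell, and 6 did not pass. Markers of immune cells summed to 7.32 to 9.42 CPM in CTRL libraries and 8.51 to 14.8 CPM in the others, and SIGLEC8, CPA3 and TPSAB1 were among those that had 0 reads. The sum was nearly all CD14, at 7.29 to 9.42 CPM and 8.48 to 14.7 CPM, which rose with the replicate number as a block (edgeR adjusted p = 0.0239) and not on group alone (0.171). Fibroblast markers reached 92.9 to 145 CPM and 98.2 to 221 CPM with COL1A2, COL3A1, DCN and LUM at 0 reads. COL1A1 alone held 92.8 to 145 CPM and 98.1 to 221 CPM of this and was likewise called higher in the blocked fit only (edgeR adjusted p = 0.0451, and 0.322 on group alone). Endothelial markers stayed between 1.37 and 2.99 CPM in all 8 libraries. Simple epithelial markers summed to 45.3 to 53.9 CPM in CTRL libraries and 35.1 to 48.3 CPM in the others, with TFF2, MUC6 and CDX2 at 0 reads. Nearly all of this was KRT8 and KRT18, both lower in 4 of 4 pairs. KRT18 was called lower in the blocked fit only (edgeR adjusted p = 0.0398, and 0.359 on group alone).

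Setting miR-155OE against CTRL asked which of these surface and secreted proteins changed their transcripts when miR-155-5p was raised. LYPD5 and LY6E rose and the other 8 did not pass the test, which was edgeR's quasi-likelihood test on group alone with Benjamini-Hochberg adjustment over all tested genes. These 2 of 10 (20%) stand beside 3.22% of all tested genes called in either direction. By direction, 2.17% of all tested genes were called higher and 1.05% lower. No gene of the family was called lower, and DESeq2 also called 0 lower. At an unadjusted p under 0.05 by edgeR, for which no share of all tested genes is given here, 1 was lower. DESeq2 called 3 higher, adding LYNX1 (adjusted p = 0.0298), where it called 1223 of the 15135 tested genes in either direction. The family's median log2 fold change was 0.17, beside −0.01 over all tested genes, with a range from −1.47 (PSCA) to 0.52 (LYPD5).

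The libraries are numbered 1 to 4 in each group. With the replicate number as a block, LYPD5, LY6E, LY6K and LYNX1 rose and PSCA and LYPD2 fell, 6 of 10 (60%), where 12.6% of all tested genes were called, 7.43% higher and 5.17% lower. The groups did not overlap for LYPD5, LY6E and PSCA, 3 of 10, beside 11.4% of all tested genes. In 8 of the 10 genes the miR-155OE library lay on the same side of its CTRL partner in all 4 pairs, as it did in 35.6% of all tested genes. The exceptions were LY6D, higher in 2 pairs and lower in 2, and PLAUR, higher in 1 pair and lower in 3. The authors' deposited table, which lists 25529 genes and calls 4.73% of them, called 3 of the 10 at its adjusted p: LYPD5 (log2 fold change 0.53), LY6E (0.47) and LYNX1 (0.41). That share is of a larger set of genes than the 15135 tested here, so it is not like the shares above.

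**Figure D1:**
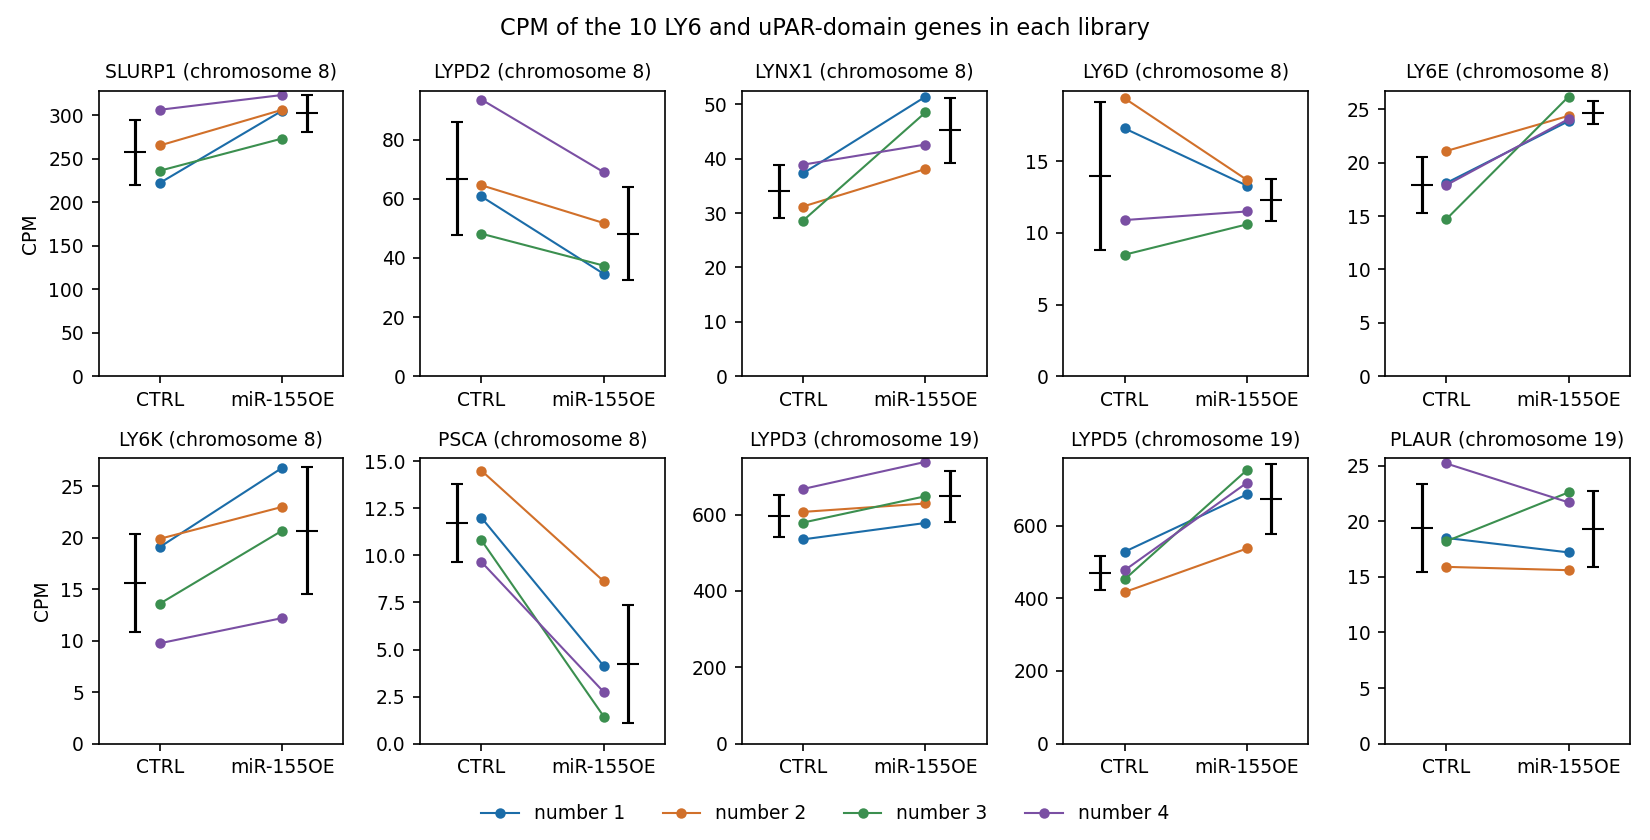
CPM (y axis, from 0) of each gene in the 4 CTRL and 4 miR-155OE libraries; lines join libraries of the same number, and the black bars give the mean and SD of each group. PSCA falls along all 4 lines to between 1.44 and 8.62 CPM, LYPD5 and LY6E rise along all 4, and LY6D and PLAUR cross.

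Levels of different genes were compared per kb of gene model. In CTRL the order was led by SLURP1, the secreted modulator of nicotinic receptors, at 479 ± 68.7 CPM per kb (SD, n = 4). LYPD3 followed at 237 ± 22.0, then LYPD2 at 112 ± 32.3 and LYPD5 at 92.0 ± 9.12 CPM per kb. These 4 genes stood at or above the 97.7th percentile of tested genes in mean level over all 8 libraries. SLURP1 and LYPD3 did not overlap across CTRL libraries, and neither did LYPD3 and LYPD2, whereas LYPD2 (81.2 to 158) and LYPD5 (82.0 to 104) did. The other 6 genes were lower than these 4, and each overlapped the next in the order: LY6D (9.03 ± 3.32 CPM per kb), LY6E (6.79 ± 0.996), LYNX1 (6.77 ± 0.971), PSCA (6.65 ± 1.17), PLAUR (4.36 ± 0.896) and LY6K (3.85 ± 1.18). The lengths are those of the whole gene model, 537 bases for SLURP1 and 5022 for LYNX1, so a gene that uses a short isoform is placed too low.

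As a share of the 10 genes' summed level per kb, SLURP1 made up 49.9 ± 1.73% in CTRL and 52.5 ± 2.45% in miR-155OE (n = 4 each, SD). LYPD3 kept a like share in both, 24.8 ± 1.18% and 24.0 ± 1.34%. LYPD2 went from 11.6 ± 1.95% to 7.49 ± 1.91% and LYPD5 from 9.73 ± 1.66% to 12.4 ± 1.93%. The order of this pair turned: in miR-155OE LYPD5 stood at 132 ± 18.7 CPM per kb and LYPD2 at 81.1 ± 26.6, with ranges of 105 to 148 and 58.3 to 116 that still overlapped. PSCA was the lowest in miR-155OE at 2.40 ± 1.77 CPM per kb.

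**Figure D2:**
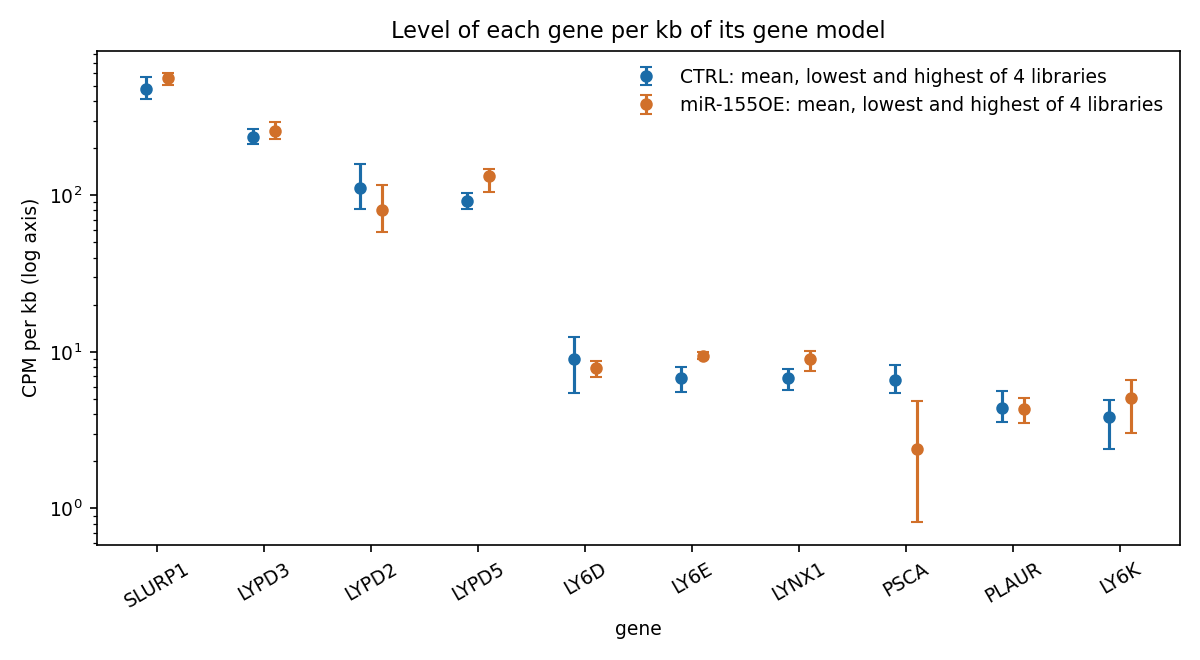
Level of each gene in CPM per kb of gene model (log axis), in CTRL order; points are means of 4 libraries and bars run from the lowest to the highest library. SLURP1, LYPD3, LYPD2 and LYPD5 lie apart from the other 6, and PSCA drops from 6.65 to 2.40 CPM per kb.

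Of the genes whose products act on nicotinic receptors, SLURP1 (ENSG00000126233; GRCh38, chromosome 8, 142740944 to 142742411) stood in CTRL libraries 1 to 4 at 222, 265, 236 and 306 CPM. The miR-155OE libraries 1 to 4 gave 305, 306, 273 and 323 CPM. SLURP1 was higher in every pair, by 0.08 to 0.46 on the log2 scale, but the highest CTRL library lay among the miR-155OE values. On group alone it did not pass (log2 change 0.23, SE 0.10, edgeR adjusted p = 0.253) or in the blocked fit (0.24, SE 0.07, adjusted p = 0.0511).

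LYNX1, a GPI-anchored brake on nicotinic receptors (ENSG00000180155; chromosome 8, 142771197 to 142777810), stood at 37.3, 31.2, 28.6 and 38.9 CPM in CTRL. In miR-155OE it stood at 51.4, 38.1, 48.5 and 42.6 CPM. The groups overlapped by 1 library, since miR-155OE replicate 2 lay just below CTRL replicate 4. LYNX1 rose with the replicate block (log2 change 0.41, SE 0.09, edgeR adjusted p = 0.0227) and did not pass on group alone (0.41, SE 0.12, adjusted p = 0.0902). The blocked call was lost without the libraries numbered 1 (adjusted p = 0.111). LYNX1 shares its whole span with the readthrough gene LYNX1-SLURP2, which had 4 reads over all libraries. SLURP2, a secreted relative of SLURP1 that lies 1.35 kb away, stood at 9.47 ± 2.55 (CTRL) and 10.6 ± 2.31 CPM (miR-155OE) (n = 4 each, SD; log2 fold change 0.16, edgeR adjusted p = 0.727).

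LYPD2 (ENSG00000197353; chromosome 8, 142750150 to 142752534) stood at 60.8, 64.6, 48.2 and 93.6 CPM (CTRL) and at 34.6, 51.8, 37.4 and 69.0 CPM in miR-155OE. Library 4 was the highest of both groups, so the groups overlapped while every pair fell, by 0.32 to 0.81 on the log2 scale. With the replicate number as a block LYPD2 fell (log2 change −0.48, SE 0.08, edgeR adjusted p = 0.00671), also without the libraries of any 1 number (highest adjusted p = 0.0358). On group alone it did not pass (−0.47, SE 0.24, adjusted p = 0.319). LYPD2 lies 7.74 kb from SLURP1, and the reads of LYPD2 per read of SLURP1 went from 0.257 ± 0.0438 in CTRL to 0.158 ± 0.0433 in miR-155OE (n = 4 each, SD), lower in 4 of 4 pairs with overlapping groups. That ratio, like the others given below, was chosen after its values were seen.

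Among the GPI-anchored LY6 antigens, LY6E, an interferon-inducible protein known to alter virus entry (ENSG00000160932; chromosome 8, 143017982 to 143023832), had groups that did not overlap. CTRL libraries held 18.1, 21.1, 14.7 and 17.9 CPM and miR-155OE libraries 23.9, 24.4, 26.2 and 24.1 CPM. Every miR-155OE library lay above the highest CTRL library, and the spread was narrower in miR-155OE. LY6E rose by a log2 fold change of 0.46 (SE 0.10, 95% interval 0.23 to 0.69, edgeR adjusted p = 0.0438). The call was lost without any library but CTRL replicate 2 or miR-155OE replicate 2 (highest adjusted p = 0.121). With the replicate block the adjusted p was 0.0161, and it was 0.0669 without the libraries numbered 1 and 0.0594 without those numbered 4.

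LY6K, an antigen of testis and of squamous carcinomas (ENSG00000160886; chromosome 8, 142700111 to 142705127), differed more between numbers than between groups. It stood at 19.1, 19.9, 13.6 and 9.75 CPM (CTRL) and at 26.8, 23.0, 20.7 and 12.2 CPM in miR-155OE. The values of library 4 were the lowest of each group, and every pair rose, by 0.21 to 0.61 on the log2 scale. LY6K rose with the replicate block (log2 change 0.41, SE 0.08, edgeR adjusted p = 0.0139), a call lost without the libraries numbered 1 (adjusted p = 0.0899). It did not pass on group alone (0.41, SE 0.26, adjusted p = 0.436).

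LY6D, a keratinocyte surface antigen used as a squamous marker (ENSG00000167656; chromosome 8, 142784880 to 142786592), stood at 17.3, 19.4, 8.48 and 10.9 CPM in CTRL. The miR-155OE libraries gave 13.3, 13.7, 10.6 and 11.5 CPM, all within the CTRL range. The log2 fold change was −0.19 (SE 0.23, 95% interval −0.70 to 0.32, edgeR adjusted p = 0.72), and pairs 1 and 2 were lower while pairs 3 and 4 were higher.

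PSCA, prostate stem cell antigen, a protein also of gastric, bladder and esophageal epithelium (ENSG00000167653; chromosome 8, 142670308 to 142682724), had the widest difference of the family. Its reads numbered 405, 500, 564 and 374 in CTRL libraries 1 to 4 and 137, 308, 58 and 100 in the miR-155OE libraries. As CPM these were 12.0, 14.5, 10.8 and 9.65 against 4.12, 8.62, 1.44 and 2.74. The groups did not overlap, and the miR-155OE libraries were the more spread, with replicate 2 the highest and replicate 3 the lowest. PSCA fell with the replicate block (log2 change −1.67, SE 0.27, edgeR adjusted p = 0.00564), also without the libraries of any 1 number (−2.04 to −1.32, highest adjusted p = 0.0366). On group alone it missed the threshold (−1.47, SE 0.41, 95% interval −2.39 to −0.56, adjusted p = 0.0784), and it passed without miR-155OE replicate 2 (−2.09, adjusted p = 0.00387).

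PSCA overlaps JRK on the opposite strand over 11661 bases. The sources used here give no strand setting for the counting, and reads there may belong to either gene. JRK stood at 13.7 ± 2.41 (CTRL) and 14.2 ± 5.06 CPM (miR-155OE) (n = 4 each, SD; log2 fold change 0.05, edgeR adjusted p = 0.938). Reads of PSCA per read of JRK were 0.742, 0.949, 0.972 and 0.786 in CTRL and 0.225, 0.459, 0.139 and 0.295 in miR-155OE, with no overlap. LY6D and LY6K also overlap antisense genes, AC083841.2 and LNCOC1, which had 104 and 99 reads over all 8 libraries.

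On chromosome 19, LYPD5 (ENSG00000159871; 43795929 to 43827206) stood at 528, 417, 452 and 477 CPM in CTRL. The miR-155OE libraries held 686, 537, 753 and 718 CPM. The groups did not overlap, although miR-155OE replicate 2 lay only just above CTRL replicate 1. LYPD5 rose by a log2 fold change of 0.52 (SE 0.11, 95% interval 0.27 to 0.78, edgeR adjusted p = 0.039), and by 0.36 to 0.74 in each pair. Leaving out any 1 library ended the call, except when it was miR-155OE replicate 2 (highest adjusted p = 0.11). The blocked fit called it too (adjusted p = 0.00388), also without the libraries of any 1 number (highest adjusted p = 0.0252).

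LYPD3, the uPAR-like protein of suprabasal squamous cells (ENSG00000124466; 43460787 to 43465660), stood at 535, 607, 579 and 667 CPM (CTRL) and at 578, 629, 648 and 738 CPM in miR-155OE. Every pair was higher, by 0.05 to 0.16 on the log2 scale, and the groups overlapped. Its log2 fold change of 0.12 (SE 0.10, 95% interval −0.09 to 0.33) did not pass (edgeR adjusted p = 0.551, and 0.206 with the replicate block). Reads of LYPD5 per read of LYPD3, which lies 330 kb away, went from 0.793 ± 0.135 in CTRL to 1.04 ± 0.159 in miR-155OE (n = 4 each, SD), higher in 4 of 4 pairs with overlapping groups.

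PLAUR, the urokinase receptor (ENSG00000011422; 43646095 to 43670547), stood at 18.5, 15.9, 18.2 and 25.2 CPM (CTRL) and at 17.2, 15.6, 22.6 and 21.7 CPM in miR-155OE. The groups covered nearly the same range. The log2 fold change was −0.01 (SE 0.16, 95% interval −0.36 to 0.34, edgeR adjusted p = 0.975), so a change of either sign within that interval is not excluded.

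**Figure D3:**
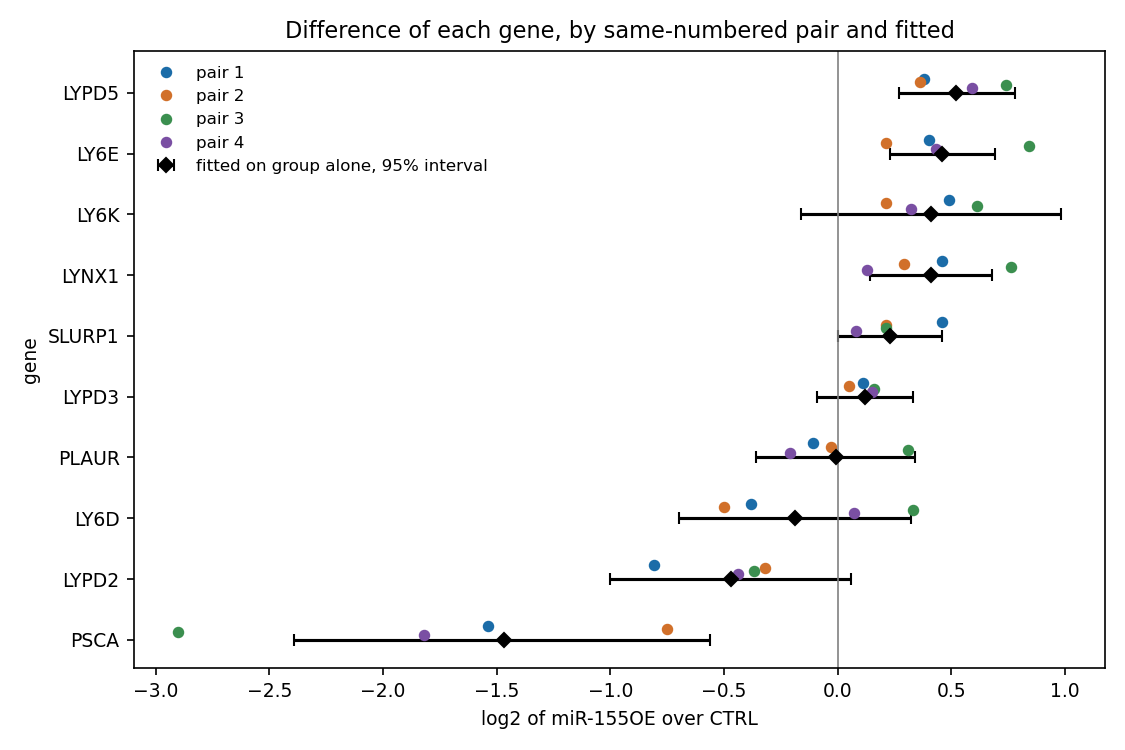
Log2 of miR-155OE over CTRL for each gene: coloured points are the 4 same-numbered pairs and black diamonds the edgeR log2 fold change on group alone with its 95% interval. The points of 8 genes lie on 1 side of 0, PSCA spreads from −2.90 to −0.75, and LY6D and PLAUR lie on both sides.

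The chromosome 8 genes were then set against the 86 other tested genes within 2 Mb. Those neighbours had a median log2 fold change of 0.24 (quartiles 0.06 and 0.40): 11 rose, 1 fell and 74 did not pass on group alone. The neighbours' median log2 level, relative to CTRL, was 0.00 ± 0.08 over CTRL libraries (SD, n = 4) and 0.25 ± 0.12 over miR-155OE libraries (n = 4), at 0.33, 0.18, 0.36 and 0.11 in miR-155OE libraries 1 to 4. Within 1 Mb the 41 other tested genes had a lower median, 0.16 (quartiles −0.04 and 0.34). Of these 41, 4 rose, 1 fell and 36 did not pass on group alone. The shift of the neighbourhood was known from earlier results of these data, and its part in the members' values was not tested.

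PSCA had a lower log2 fold change than all 86 neighbours, and LYPD2 a lower one than 83 of them. Once the neighbours' median was taken off each library, PSCA stood at −1.99 ± 1.13 in miR-155OE against 0.00 ± 0.21 in CTRL, and LYPD2 at −0.73 ± 0.57 against 0.00 ± 0.37 (log2, SD, n = 4 each). PSCA groups did not overlap on this scale and LYPD2 groups did, and both genes were lower in 4 of 4 pairs. LY6E kept 0.22 of its log2 difference, LYNX1 0.16 and LY6K 0.16, each with overlapping groups and each higher in 4 of 4 pairs. SLURP1 kept −0.01, higher in 2 pairs and lower in 2. Of the 86 neighbours, 69 had a lower log2 fold change than LY6E and 65 a lower one than LYNX1 or LY6K. LY6D stood at −0.37 ± 0.23 against 0.00 ± 0.49, with overlapping groups and 4 of 4 pairs lower.

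**Figure D4:**
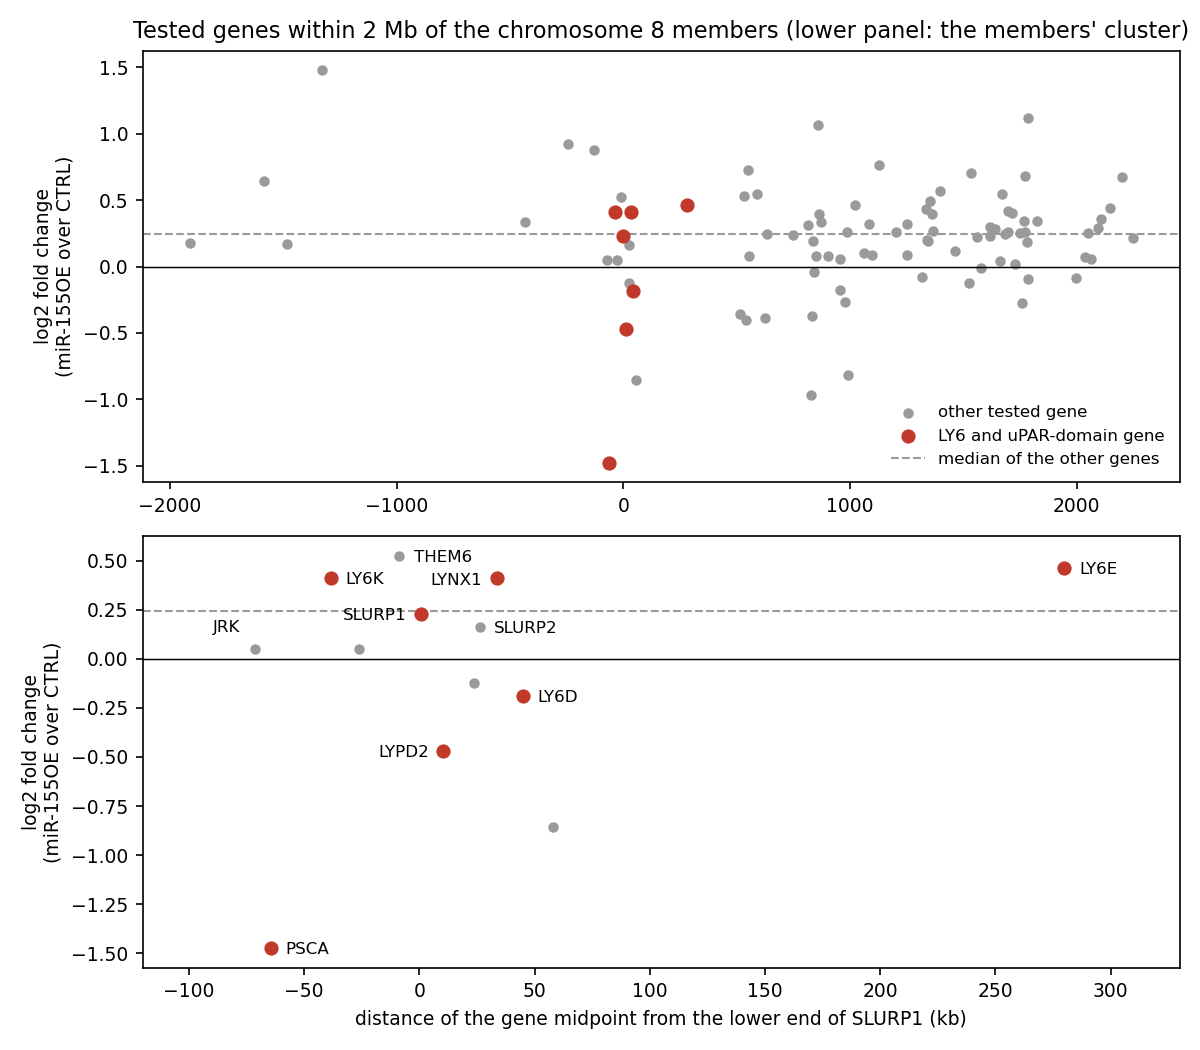
Log2 fold change of tested genes by distance from SLURP1 on chromosome 8, within 2 Mb of the cluster (upper panel) and within the cluster (lower panel); red points are the 7 LY6 and uPAR-domain genes, and the dashed line is the other genes' median, 0.24. PSCA and LYPD2 lie far below that line, and LY6K, LYNX1 and LY6E lie above it.

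The nearest tested genes outside the chromosome 8 cluster did not pass on group alone. On the PSCA side, ARC, ADGRB1 and TSNARE1 had log2 fold changes of 0.88, 0.92 and 0.33, and on the LY6E side ZFP41, GLI4 and MINCR had −0.36, 0.53 and −0.40 (edgeR adjusted p = 0.0943 to 0.611). With the replicate block ADGRB1 rose (0.95, adjusted p = 0.0461) and the other 5 did not pass. THEM6, between LY6K and SLURP1, went from 9.52 ± 1.88 to 13.7 ± 1.14 CPM (n = 4 each, SD; log2 fold change 0.52, adjusted p = 0.0715, and 0.0111 with the replicate block).

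Around LYPD3, PLAUR and LYPD5, the 101 other tested genes within 2 Mb had a median log2 fold change of 0.01, and 2 rose, 0 fell and 99 did not pass. LYPD5 lay above 95 of these 101 genes. Against their median it stood at 0.51 ± 0.23 in miR-155OE and −0.01 ± 0.12 in CTRL (log2, SD, n = 4 each), with no overlap, while LYPD3 (0.11 ± 0.18) and PLAUR (−0.01 ± 0.28) overlapped their CTRL values. Of the nearest genes, ZNF283, 0.086 kb beyond LYPD5, had a log2 fold change of 0.13, and ZNF404 and AC006213.2 had −0.33 and 0.14. Beyond LYPD3, TEX101, a relative expressed in testis, had 0.24, AC005392.2 had −0.38 and PSG7 had 1.30 (edgeR adjusted p = 0.288 to 0.869 for these 6). None of the tested genes between these members passed on group alone. KCNN4 had 0.99 (edgeR adjusted p = 0.0992, groups not overlapping) and AC115522.1 had 0.49 (0.0757, groups overlapping). With the replicate block AC115522.1 rose (0.49, edgeR adjusted p = 0.00831), ETHE1 fell (−0.26, 0.0343) and the rest did not pass.

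**Figure D5:**
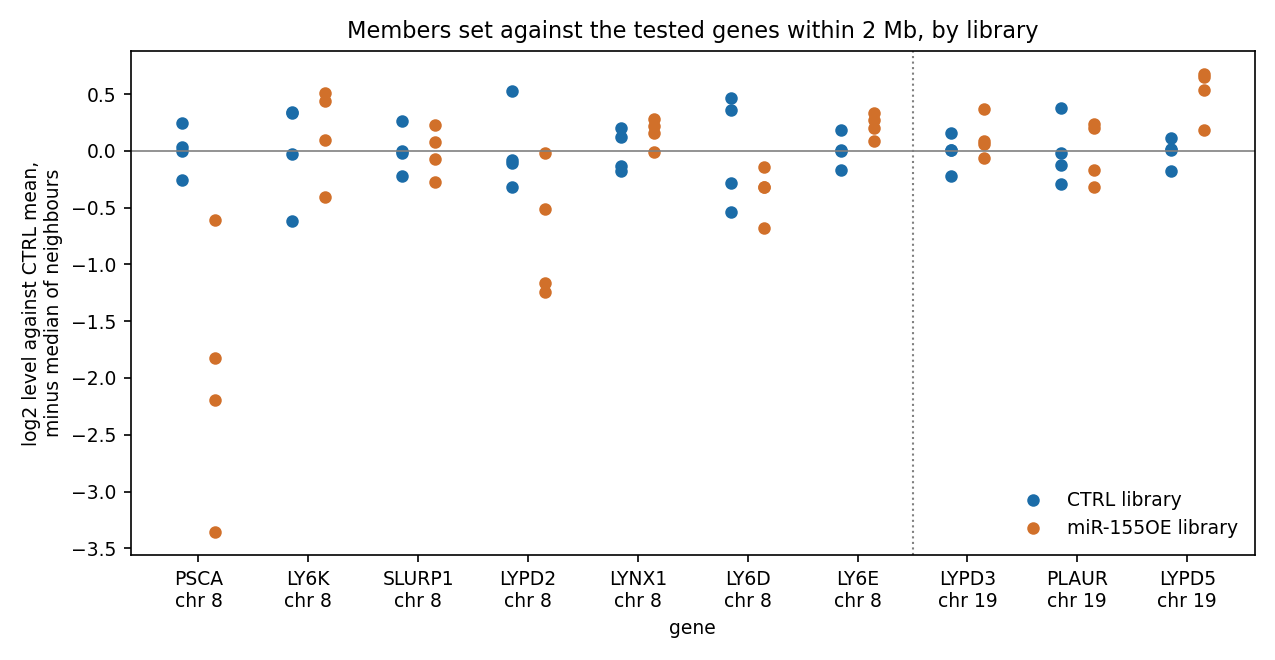
Log2 level of each gene against its CTRL mean, after subtraction of the median of the tested genes within 2 Mb, for each library. PSCA (miR-155OE mean −1.99) lies below 0 in all 4 miR-155OE libraries and LYPD5 (0.51) above its CTRL values, while the other genes overlap between groups.

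Of 24 further genes of the family, 7 were tested and 11 had 0 reads in all libraries, where 3 reads would be 0.0573 to 0.0901 CPM. By edgeR on group alone 0 of the 7 changed, and DESeq2 called 0. At an unadjusted p under 0.05 by edgeR, for which no share of all tested genes is given here, 2 were higher and 1 lower. The most abundant was CD59, the GPI-anchored inhibitor of complement, at 200.3 ± 37.1 (CTRL) and 147 ± 40.3 CPM (miR-155OE) (n = 4 each, SD; log2 fold change −0.45, edgeR adjusted p = 0.229). CD59 fell with the replicate block (−0.47, adjusted p = 0.00654). LY6G6C rose with it (0.51, adjusted p = 0.00422), and LYPD6B did not pass in either fit (0.45 on group alone, adjusted p = 0.191).

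The plasminogen activation list, which holds the partners of PLAUR, had 18 tested genes: 1 rose, 1 fell and 16 did not pass. EGFR, a growth factor receptor that can associate with PLAUR, rose from 159 ± 21.7 to 242 ± 15.8 CPM (n = 4 each, SD; log2 fold change 0.60, adjusted p = 0.0139), and passed without each library in turn (highest adjusted p = 0.0495). Urokinase itself, PLAU, did not pass (0.13, adjusted p = 0.546). With the replicate block 1 gene rose and 4 fell, among them ITGA5 (−0.25), ANXA2 (−0.41) and S100A10 (−0.55). The last of these, which with ANXA2 binds plasminogen, had an adjusted p of 0.0828 on group alone. PLAU, ITGA5 and ANXA2 were named after their values were seen. The list's median log2 fold change was −0.11.

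Among 27 genes of acetylcholine receptors and metabolism, which include the nicotinic receptors on which SLURP1 and LYNX1 act, 5 were tested, 1 rose and 4 did not pass. CHRNA9, the nicotinic subunit known in keratinocytes, stood at 7.16, 4.05, 4.93 and 8.44 CPM (CTRL) and at 20.2, 10.9, 18.4 and 22.3 CPM in miR-155OE. The groups did not overlap, and the log2 fold change was 1.55 (SE 0.26, edgeR adjusted p = 0.0142). The call was lost without CTRL replicate 3 or miR-155OE replicate 1 (highest adjusted p = 0.0616) and held with the replicate block (adjusted p = 0.000174). CHRNA7, the subunit most often named as the receptor of SLURP1, was among 12 genes of the list with 0 reads in all libraries. CHRNB1 and CHRNE had log2 fold changes of −0.33 and −0.29 (edgeR adjusted p = 0.238 and 0.724).

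Of 29 tested genes that build and attach the GPI anchor, edgeR called 0 on group alone and DESeq2 called 0. At an unadjusted p under 0.05 by edgeR, for which no share of all tested genes is given here, 7 were higher and 1 lower. The 29 genes' median log2 fold change was 0.06. Their summed level was 698 to 703 CPM in CTRL libraries and 710 to 740 CPM in the others. PIGX, PIGC and DPM2 had the lowest p (0.22, 0.31 and 0.23 on the log2 scale). DPM1 and GPAA1, the latter a subunit of the anchor-attaching complex, were the most abundant per kb (0.05 and 0.19). With the replicate block GPLD1, a phospholipase that cuts GPI anchors, rose (1.11, adjusted p = 0.00288), and was named after its value was seen.

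Suprabasal squamous markers moved in the same libraries. Of 12, 2 rose and 10 did not pass on group alone, and 3 rose and 5 fell with the replicate block. Their summed level was 9750 to 14400 CPM in CTRL libraries and 12000 to 27700 CPM in the others, and none was at 0 reads. The largest gains in mean CPM were those of KRT10 (3630 ± 2260 to 7420 ± 3790) and KRT1 (952 ± 400 to 6340 ± 2850; SD, n = 4 each). The list's median log2 fold change was −0.47. With the block KRT1, KRT10 and DSG1 were called higher, and KRT4, KRT13, CRNN, SPRR3 and MAL lower. KRT1, a keratin of epidermis, rose (log2 fold change 2.73, edgeR adjusted p = 0.00685). KRT4, a keratin of moist esophageal mucosa, stood at 95.4 ± 29.2 (CTRL) and 17.3 ± 20.8 CPM (miR-155OE) (n = 4 each, SD; −2.47, adjusted p = 0.0745, and 0.00696 with the replicate block). In bulk RNA a smaller share of cells expressing a gene and less RNA per cell cannot be told apart, and the part of these markers, of CD14 and of COL1A1 in the LY6 results was not tested.

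For each member with a mean of at least 10 CPM, the 3 genes with the most similar profile over the 8 libraries were found by the root mean square difference of log2 CPM, each gene centred on its mean. LYPD5 was nearest to NDEL1 (0.0611), TMEM185A and DEDD2, where its own spread was 0.304. LY6E was nearest to TMED3 (0.0731), FAM83F and TYSND1, with an own spread of 0.272. LYNX1 was nearest to GPR157 (0.0649), SBSN, a secreted protein of suprabasal keratinocytes, and BTBD11, and LYPD2 to NUAK2 (0.162), CDK5R1 and GSR. The nearest were EMP2 for SLURP1 (0.0778), PAPPA2 for LY6K (0.137), HDAC11 for LY6D (0.159), SREBF1 for LYPD3 (0.0372) and SMPD2 for PLAUR (0.0671). GSR alone among the 27 genes found lies on chromosome 8. PSCA was below the CPM limit. These distances describe 8 libraries and carry no test.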

How the data were processed

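Gene counts of 8 libraries were used as deposited, whole and unscaled, with the gene positions and lengths of the same table. Alignment with HISAT2 2.0.5 to GRCh38, counting with featureCounts 1.5.0-p3 and use of DESeq2 are named in the submitters' processing notes. The strand setting is not given in the sources used here. The authors' deposited table gives a log2 fold change and an adjusted p-value per gene, and was used for its calls and for the fold changes credited to it.

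They were fitted with edgeR 4.0.16 under R 4.3.3 (filterByExpr, TMM, quasi-likelihood F test on group alone, Benjamini-Hochberg over all 15135 tested genes, threshold 0.05). SEs and 95% intervals were derived from the fold change and its F statistic, so they restate the test. DESeq2 1.42.0, with no independent filtering, was an alternative. Log2 levels used a prior count of 0.5. Others were other scalings, no low-count filter, each library left out, and the replicate block. Both edgeR fits were tested on simulated data that held no effect of the replicate number. That simulation cannot tell which of the fits suits these libraries. Sets of libraries left out in the blocked fit were added after seeing the data. Python 3.11.15 made the summaries. GENCODE 29 gave 58724 of the 58735 listed genes the same start and end.

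The labels do not say what a replicate number shares. Across 10246 genes, the correlation between a CTRL library's deviation from its group mean and that of its miR-155OE namesake was 0.579 (number 1), 0.494 (number 2), 0.19 (number 3) and 0.606 (number 4). All exceeded 0.1, and on that rule the numbers were treated as pairing the samples. The third CTRL library had a closer match, 0.205, in a miR-155OE library of another number.

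The members and lists were chosen with earlier results of these data known. All 10 members were named. Of each of 4 lists (other family genes, plasminogen activation, acetylcholine, GPI anchor), the 3 lowest p and the 2 most abundant per kb were named, as were the 3 nearest tested genes on either side of each cluster and the 3 most similar profiles. Cell type markers formed 6 further lists. Further genes in the clusters and marker lists were named after their values were seen. Protein sequences were not used here. Some genes that these rules would name are not reported here.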

Additional observations from a re-analysis of the deposited data

How the results depend on the processing

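The counts moved with the fit. Over all genes 488 were called on group alone, 927 without a low-count filter, 1908 with the replicate number as a block and 1223 by DESeq2, and 125 to 1274 when 1 library was left out. Of the 10 members, 2 were called on group alone, 3 by DESeq2, 4 without the filter and 6 with the replicate block, and from 0 to 4 with 1 library left out. That count was 0 in 6 of the 8 cases, was 1 without CTRL replicate 2 and was 4 without miR-155OE replicate 2. The blocked count ran from 3 (without the libraries numbered 1) to 6. The cause of these moves was not tested. Of 130 member values under alternatives, 104 kept their direction and side of the threshold, 13 lost and 9 gained a call, and 4 changed sign. The sign changes were LY6D without CTRL replicate 2 (0.01, range −0.37 to 0.01) and PLAUR without CTRL replicate 4 (0.14), miR-155OE replicate 1 (0.04) or miR-155OE replicate 2 (0.08), with a range of −0.10 to 0.14. Of the named list genes, CHRNE without CTRL replicate 4 (0.07, range −0.44 to 0.07) and DPM1 without miR-155OE replicate 4 (−0.03, range −0.03 to 0.12) also changed sign. The members' median against their neighbours kept its sign with windows of 1 and 5 Mb on both chromosomes. Single genes moved with the 1 Mb window. There SLURP1 kept 0.04 and PLAUR 0.08, each higher in 3 pairs and lower in 1, and LY6D was lower in 3 pairs and higher in 1. Counting error was widest for PSCA, with 58 to 564 reads per library.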
